A study of Mus musculus with 12 samples.

Results

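The core cardiac transcription factors Gata4, Gata6, Nkx2-5, Mef2a, Mef2c, Mef2d, Tbx5, Tbx20, Hand1 and Hand2 were examined by RNA-Seq in hearts of mice in which the nuclear envelope protein LEMD2 was mutated or deleted. The 10 genes were taken by symbol from a table of 24062 gene symbols, and all 10 had a row. RNA was prepared from whole hearts of 12 mice, 1 library per mouse, in 4 groups of 3. Adult mice were 2 months old and were either Lemd2 WT or KI/KI, which carry on both alleles a Lemd2 c.T38>G change introduced by CRISPR/Cas9 in founders crossed to C57BL/6N. Neonatal mice were at postnatal day 1 (P1) and were either Lemd2-floxed, with LoxP sites at exon 1 but no Cre, or cKO, which carry the same floxed alleles together with a Myh6-Cre transgene. The Myh6 promoter restricts Cre to cardiomyocytes, so the other cells of a cKO heart keep an intact Lemd2 gene, and the floxed mice carry no Cre, so the transgene itself is not controlled for.

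These factors form the transcriptional core of the cardiac muscle lineage. Zinc finger proteins of the GATA family, the homeodomain protein NKX2-5, the MADS box proteins of the MEF2 family, the T-box proteins TBX5 and TBX20 and the basic helix-loop-helix proteins HAND1 and HAND2 bind together at enhancers of contractile and developmental genes. They are needed in the embryo for chamber formation, septation and conduction, and most continue to be transcribed in postnatal cardiomyocytes. GATA4, GATA6, MEF2A, MEF2C, TBX20 and HAND2 are also made in other cells of the heart, such as endothelial, valve or epicardial cells.

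Library totals ranged from 37063669 to 44789753 counts. Levels are given as CPM, the counts of a gene per 1000000 counts of its library, after TMM normalization over all 12 libraries, and 3 counts, taken as the floor for counting error, corresponded to at most 0.0965 CPM. Lemd2 was at 32.0, 34.8 and 32.9 CPM in WT hearts, at 25.7, 25.2 and 24.8 in KI/KI hearts, at 24.3, 25.0 and 25.4 in floxed hearts, and at 6.59, 13.1 and 11.3 in cKO hearts. The cKO hearts were therefore below the floxed hearts without overlap, as their label says. Defining markers of cardiomyocytes were abundant in every library, since the summed level of 8 of them (Tnnt2, Actn2, Ttn, Ryr2, Myom1, Ldb3, Csrp3 and Tcap) was at least 15533 CPM. The cKO heart of replicate 4 differed from the other 11 hearts in sex-linked transcripts, with Xist at 612 CPM and Ddx3y at 0.0399 CPM, where the other P1 hearts had Ddx3y at 96.9 CPM or more.

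The promoters of Mef2a, Mef2d and Mef2c are shown first because these 3 paralogs had lower levels in cKO hearts, and those of Tbx20 and Hand2 because they did not pass that test. Each line gives the 250 bases before an annotated start, 5′ to 3′ on the strand of the gene, from RefSeq on GRCm38.p6. The windows are chr7:67372859-67373108 on the minus strand for Mef2a, chr3:88142122-88142371 on the plus strand for Mef2d, chr13:83503784-83504033 on the plus strand for the first of 3 Mef2c starts, chr9:24774304-24774553 on the minus strand for Tbx20 and chr8:57320733-57320982 on the plus strand for Hand2. None overlaps an annotated exon of its own gene, and the Hand2 window overlaps an exon of the antisense gene Hand2os1. Capitals mark matches, on either strand, to GATAA (GATA factors), AAGTG (NKX2-5), GGTGT (T-box factors) or CTA and TAG with any 4 bases between them (MEF2).
Mef2a: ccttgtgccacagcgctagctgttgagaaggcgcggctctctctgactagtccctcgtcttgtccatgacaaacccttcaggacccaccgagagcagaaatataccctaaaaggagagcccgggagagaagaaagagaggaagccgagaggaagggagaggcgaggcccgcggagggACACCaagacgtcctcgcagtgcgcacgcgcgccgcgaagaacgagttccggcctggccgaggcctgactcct
Mef2d: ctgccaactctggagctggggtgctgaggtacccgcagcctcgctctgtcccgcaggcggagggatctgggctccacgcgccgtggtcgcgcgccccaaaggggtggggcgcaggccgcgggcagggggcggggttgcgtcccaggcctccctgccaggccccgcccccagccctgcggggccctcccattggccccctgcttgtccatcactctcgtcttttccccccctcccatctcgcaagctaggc
Mef2c: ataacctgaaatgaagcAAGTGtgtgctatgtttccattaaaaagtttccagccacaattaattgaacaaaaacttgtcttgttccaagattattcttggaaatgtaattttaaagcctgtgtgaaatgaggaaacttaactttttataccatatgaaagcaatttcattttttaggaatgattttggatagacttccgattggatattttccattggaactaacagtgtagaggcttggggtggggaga
Tbx20: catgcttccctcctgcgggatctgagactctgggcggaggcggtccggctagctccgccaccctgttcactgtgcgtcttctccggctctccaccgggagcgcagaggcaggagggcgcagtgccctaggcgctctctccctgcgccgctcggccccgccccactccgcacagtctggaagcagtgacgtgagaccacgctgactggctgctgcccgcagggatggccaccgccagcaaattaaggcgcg
Hand2: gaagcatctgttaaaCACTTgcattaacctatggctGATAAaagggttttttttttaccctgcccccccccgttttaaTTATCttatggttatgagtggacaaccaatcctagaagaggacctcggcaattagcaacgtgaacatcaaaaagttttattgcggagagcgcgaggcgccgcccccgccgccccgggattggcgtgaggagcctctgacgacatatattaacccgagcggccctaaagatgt

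The Mef2d and Tbx20 windows held no match to these motifs, and the Mef2a window held a single T-box match, whose first base lies 73 bases before the start. The Hand2 window held GATA matches at 214 and 172 bases before the start and an NKX2-5 match at 235 bases, which overlaps a match to the E-box CANNTG, the motif of HAND proteins and many other factors. The first Mef2c window held an NKX2-5 match at 233 bases, which also lies within an E-box. The windows of the other Mef2c starts, which are not printed, held further matches. The second held GATA matches at 230 and 128 bases, an NKX2-5 match at 63 and a T-box match at 215. The third held an NKX2-5 match at 58 bases and a T-box match at 170. Among 32536 distinct promoter windows of the same length, GATAA occurred in 22.5%, AAGTG in 40.6%, GGTGT in 36.3%, the MEF2 motif in 3.22% and CANNTG in 66.2%. Matches to such short motifs are thus common, and they are descriptions of letters, not sites. RefSeq windows were searched for 6 of the 10 genes, the sixth being Nkx2-5, whose window held an E-box match only. Windows on chromosome 18, where Gata6 lies, were left out of the search.

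The genes lie on 10 chromosomes of GRCm38. Gata4 (ENSMUSG00000021944.15) spans chr14:63198922-63271692 on the minus strand, Gata6 (ENSMUSG00000005836.10) chr18:11052064-11085635 on the plus strand and Nkx2-5 (ENSMUSG00000015579.5) chr17:26838664-26845009 on the minus strand. Mef2a (ENSMUSG00000030557.17) spans chr7:67231163-67372858 on the minus strand, Mef2c (ENSMUSG00000005583.16) chr13:83504034-83667080 on the plus strand and Mef2d (ENSMUSG00000001419.17) chr3:88142372-88172086 on the plus strand. Tbx5 (ENSMUSG00000018263.11) spans chr5:119832668-119885219 on the plus strand and Tbx20 (ENSMUSG00000031965.15) chr9:24718138-24774303 on the minus strand. Hand1 (ENSMUSG00000037335.13) spans chr11:57828705-57832818 on the minus strand and Hand2 (ENSMUSG00000038193.4) chr8:57320983-57324633 on the plus strand. Exons of 4 of them overlap exons of a gene on the opposite strand. The overlap takes 19.6% of the exon bases of Hand2 (Hand2os1), 8.87% of Mef2d (1700113A16Rik), 2.06% of Mef2a (Lysmd4) and 1.43% of Gata6 (1010001N08Rik). Whether the counting used strand is not given in the sources used here, so reads in those stretches cannot be assigned with certainty.

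In all, 9 of the 10 factors were transcribed at both ages, and Hand1 was found only at P1 above the floor. Per kilobase of annotated exon, Gata4 had the highest mean in WT hearts, at 41.1 ± 3.08 CPM per kb (SD, n = 3), followed by Hand2 (34.7 ± 12.6), Mef2a (31.1 ± 2.19), Nkx2-5 (30.5 ± 2.35), Tbx20 (22.8 ± 0.414), Mef2d (21.3 ± 0.698), Tbx5 (17.2 ± 1.02), Gata6 (14.9 ± 2.27) and Mef2c (9.57 ± 0.743). The ranges of neighbours overlapped among Gata4, Hand2, Mef2a and Nkx2-5 and between Tbx5 and Gata6, so these were not separated by the spread between hearts. In floxed hearts at P1 the order was Tbx20 (58.3 ± 10.9 CPM per kb), Gata4 (51.1 ± 5.88), Mef2a (43.9 ± 1.12), Gata6 (36.9 ± 2.76), Nkx2-5 (33.0 ± 2.18), Hand2 (31.4 ± 4.56), Mef2d (18.5 ± 0.584), Tbx5 (17.1 ± 2.11), Mef2c (10.2 ± 0.809) and Hand1 (1.37 ± 0.258). Neighbours overlapped among Tbx20, Gata4 and Mef2a, among Gata6, Nkx2-5 and Hand2, and between Mef2d and Tbx5. In KI/KI hearts Gata4 was highest at 45.4 ± 4.71 CPM per kb and in cKO hearts at 62.4 ± 8.71, where its range overlapped that of Tbx20 (57.8 ± 16.1), and Mef2c was the lowest after Hand1 in all 4 groups. The length is that of all annotated isoforms together, 15715 bases for Mef2c and 14681 for Mef2a against 1719 for Nkx2-5, so the levels of genes with long alternative exons are understated on this scale. These lengths are from GENCODE M21, whereas the authors took their gene annotation from Illumina iGenomes. The exons that were counted may therefore differ from those measured, which limits the order of the genes.

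**Figure D1:**
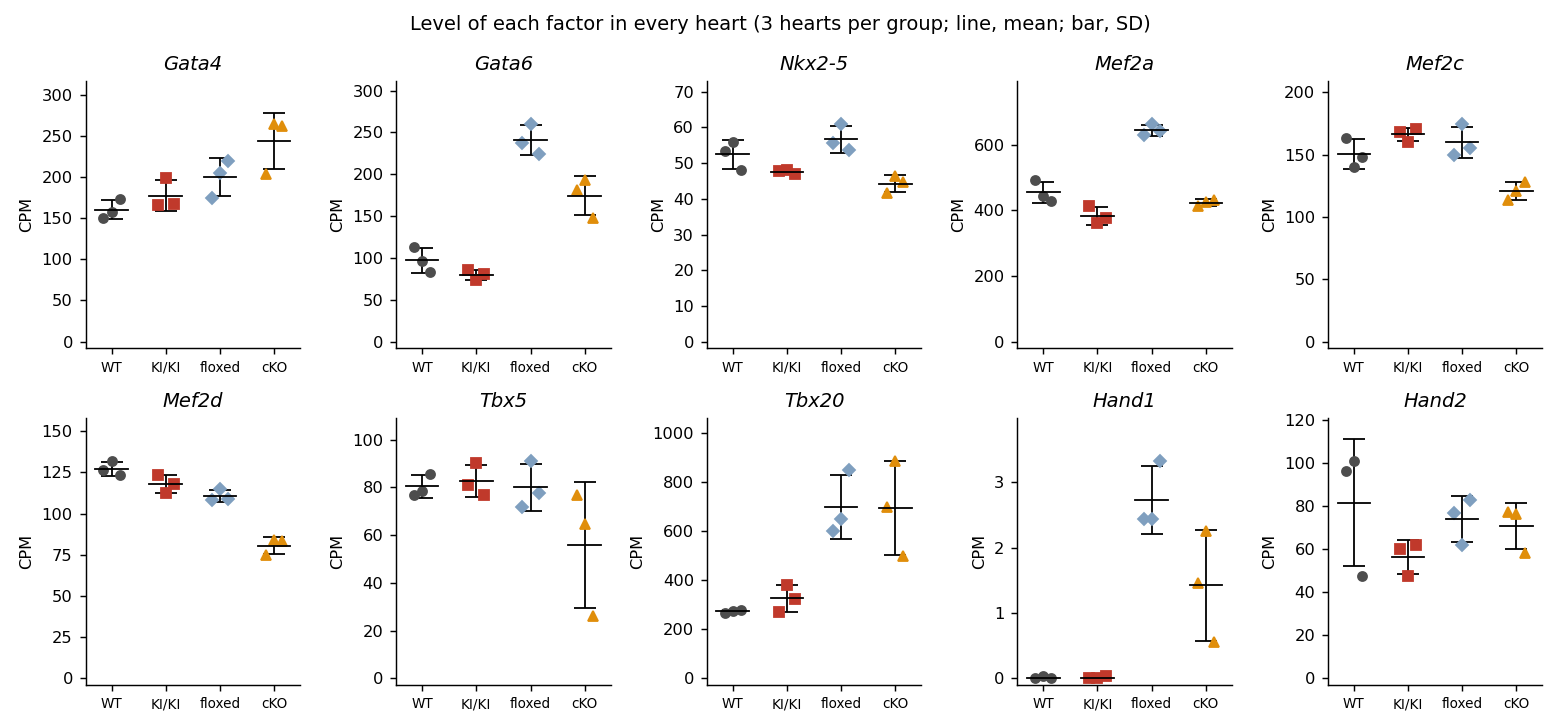
Level of each of the 10 factors in CPM (y axis, from 0) in every heart of the WT, KI/KI, floxed and cKO groups (x axis), with the mean as a line and the SD as a bar. Mef2a, Mef2c, Mef2d, Nkx2-5, Gata6 and Hand1 had cKO hearts entirely below floxed hearts, and Hand1 was near 0 in the 6 adult hearts.

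To ask whether loss of LEMD2 from cardiomyocytes was accompanied by different levels of these factors, cKO hearts were compared with floxed hearts at P1. All 10 genes passed the filter on low counts. Of these, 5 had lower levels in cKO hearts, the 3 MEF2 genes, Nkx2-5 and Gata6, at 0.657 to 0.780 of the floxed level, and 0 had higher levels (edgeR quasi-likelihood test, Benjamini-Hochberg adjusted p under 0.05 over 15317 genes). Among all genes tested 7.57% were called lower and 9.32% higher. The median log2 fold change of the 10 was -0.43, and that of all genes was -0.00427. None of the 5 differed by more than 2-fold. Without overlap, 6 of the 10 had all cKO hearts below all floxed hearts, which held for 19.3% of all genes, and 0 had all cKO hearts above, which held for 20.5%.

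MEF2 factors bind A/T-rich elements of muscle genes and respond to calcium and stress signals through class II histone deacetylases. Mef2a stood at 630, 663 and 642 CPM in floxed hearts and at 413, 427 and 432 in cKO hearts. It had the tightest groups of the 10 genes at P1, with a coefficient of variation of 2.56% in floxed and 2.40% in cKO hearts. Its log2 fold change was -0.61 (SE 0.07), with an adjusted p of 0.00634 by edgeR. Mef2d stood at 108, 115 and 109 CPM in floxed hearts and at 74.8, 84.0 and 83.1 in cKO hearts, a log2 fold change of -0.46 (SE 0.07, edgeR adjusted p of 0.0106). Mef2c, which is needed for the embryonic heart to loop and form its ventricles, stood at 150.0, 174 and 155 CPM in floxed hearts and at 114, 120.5 and 128 in cKO hearts. Its log2 fold change was -0.41 (SE 0.08), with an adjusted p of 0.0222 by edgeR. The hearts of the 2 groups did not overlap for any of the 3 paralogs.

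Nkx2-5, the earliest marker of the cardiac lineage among these genes, stood at 55.6, 60.8 and 53.6 CPM in floxed hearts and at 41.6, 46.5 and 44.7 in cKO hearts. Its log2 fold change was -0.36 (SE 0.08, edgeR adjusted p of 0.0313). Of the 2 GATA genes only Gata6 was called. Gata6 reached 238, 259 and 224 CPM in floxed hearts as against 181, 193 and 148 in cKO hearts, with a log2 fold change of -0.46 (SE 0.12, edgeR adjusted p of 0.0459). Gata4, which activates natriuretic peptide and contractile genes under load, stood at 174, 205 and 219 CPM in floxed hearts and at 204, 264 and 262 in cKO hearts. The lowest cKO heart lay within the floxed range, and the log2 fold change of 0.28 (SE 0.12) did not pass the test, with an adjusted p of 0.144 by edgeR.

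The T-box and HAND genes were not called in cKO hearts. Tbx5, a factor of the atria, the conduction system and the left ventricle, stood at 71.7, 91.0 and 77.7 CPM in floxed hearts and at 76.7, 64.8 and 25.9 in cKO hearts. The cKO heart of replicate 6 alone was far below the rest. Its log2 fold change was -0.51 (SE 0.36, edgeR adjusted p of 0.352), and it was -0.18 without that heart and -0.83 without cKO replicate 4. Hand1, which marks the left ventricle of the embryo, stood at 2.44, 2.43 and 3.33 CPM in floxed hearts and at 1.46, 2.25 and 0.559 in cKO hearts. The groups did not overlap, but the log2 fold change of -0.91 (SE 0.41) did not pass the test, with an adjusted p of 0.162 by edgeR. It was -0.56 without cKO replicate 6 and -1.38 without cKO replicate 5. Tbx20, which acts in chamber growth and valves, stood at 601, 651 and 848 CPM in floxed hearts and at 697, 885 and 500.2 in cKO hearts, and Hand2, which acts in the right ventricle, stood at 76.6, 62.1 and 83.0 CPM in floxed hearts and at 77.3, 76.4 and 58.3 in cKO hearts. For both the groups overlapped. Their 95% intervals ran from -0.54 to 0.52 for Tbx20 and from -0.43 to 0.30 for Hand2 on the log2 scale, so differences of that size were not detectable with 3 hearts per group.

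The same cKO heart had the lowest summed level of atrial markers. The summed level of 6 atrial markers (Myl7, Myl4, Sln, Bmp10, Nr2f2 and Stard10) was 936, 1517 and 1344 CPM in floxed hearts and 2941, 1889 and 497 CPM in cKO hearts, and none of the 6 was at 0 in any heart. In replicate 6 of the cKO group Myl7 was at 118 CPM, against 347 to 904 in the other 5 P1 hearts, and Sln at 6.59 against 23.1 to 44.7. Myl4, Bmp10 and Stard10 were also lowest there, but Nr2f2, at 49.1 CPM, lay within the range of the other P1 hearts (42.0 to 57.8). Among the members, Tbx5, Hand1, Tbx20, Gata6 and Hand2 had their lowest P1 level in this heart. Gata4, Nkx2-5 and the MEF2 genes did not. The heart also had the lowest summed epicardial markers at P1, 26.1 CPM where the others had 33.8 to 84.3. Its proliferation markers were the highest, at 1090 CPM where the others had 279 to 543. Without this heart the log2 fold change of Gata6 was -0.36 and its call was kept (edgeR adjusted p of 0.0368). The part of atrial tissue or of other cell composition in the levels of these genes was not tested.

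**Figure D2:**
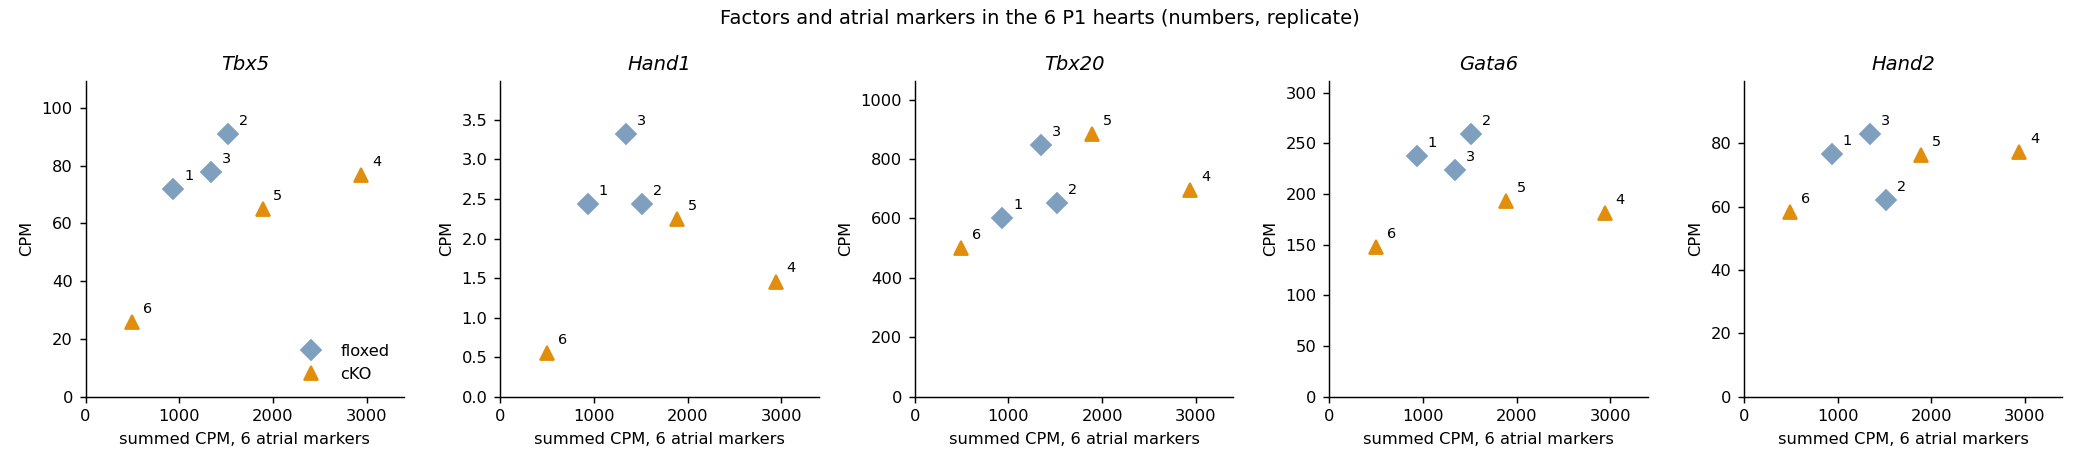
Level of Tbx5, Hand1, Tbx20, Gata6 and Hand2 in CPM (y axes, from 0) against the summed CPM of 6 atrial marker genes (x axes) in the 3 floxed and 3 cKO hearts at P1, numbered by replicate. The cKO heart of replicate 6, at 497 CPM of atrial markers, is the lowest point in all 5 panels. The genes shown are the members that were lowest in that heart, so the panels were chosen by this outcome.

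Other marker lists also differed in their summed levels between the P1 groups. Summed cardiomyocyte markers ran from 18419 to 20217 CPM in floxed hearts and from 15533 to 17848 in cKO hearts, but of the 8 markers 3 were called lower, 1 (Csrp3) higher and 4 were not called. The 8 fibroblast markers ran from 6285 to 7087 CPM in floxed and from 8403 to 9269 in cKO hearts, with 3 called higher and 3 of the other 5 below 0 in log2 fold change, and the 7 measured macrophage markers from 103 to 124 and from 132 to 245 CPM. The 6 proliferation markers ran from 279 to 395 CPM in floxed and from 450.1 to 1090 in cKO hearts. No gene of these 4 lists was at 0 in a P1 heart. The 7 lung epithelium markers, of which up to 3 were at 0 in a P1 heart, overlapped between the groups. They summed to 30.7, 48.9 and 2.45 CPM in floxed hearts and to 22.4, 3.46 and 5.25 in cKO hearts. The part of lung tissue in the levels of the members was not tested. In bulk tissue, fewer cells of a type and less RNA per cell cannot be told apart. When libraries were instead scaled to the 8 cardiomyocyte markers, an alternative chosen after seeing the data, Mef2a was the only member called lower (log2 fold change of -0.47, edgeR adjusted p of 0.0152). Mef2d was at -0.32 (0.0574), Gata6 at -0.34 (0.111), Mef2c at -0.27 (0.135) and Nkx2-5 at -0.23 (0.2003), in each case with edgeR's adjusted p. Gata4 was then called higher, at 0.42 with an adjusted p of 0.0337 by edgeR. Of the 8 scaling genes, Tnnt2 and Ryr2 are also on the list of target genes described below. The scale is therefore not independent of the factors. This scaling moved the median log2 fold change of all genes to 0.13, so Gata4 lay above and the other members named here below that of the median gene.

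Of the 5 calls, that of Mef2a was kept in all 18 alternatives tried. Without floxed replicate 1 or floxed replicate 2 it was the single call among the members. Without cKO replicate 4 or cKO replicate 5 Mef2a and Mef2d were called, and a covariate for Y-linked transcripts left these same 2 genes. Only cKO replicate 4 lacked the Y-linked transcript Ddx3y, so the covariate is close to leaving that heart out. Without floxed replicate 3 the call of Gata6 was lost, with an adjusted p of 0.063 by edgeR, and 4 members were called. The fold changes moved less than the calls. Over the 6 omissions Mef2d ran from -0.48 to -0.42, Mef2c from -0.45 to -0.35, Nkx2-5 from -0.40 to -0.31 and Gata6 from -0.54 to -0.36, and with the covariate Gata6 was at -0.52, Mef2c at -0.38 and Nkx2-5 at -0.33.

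The genes that act with these factors were examined as 4 lists, beside 7.57% of all genes called lower and 9.32% called higher. Of 16 partners and cofactors, 3 were lower and 1 was higher in cKO hearts, and the list's median was 0.14 on the log2 scale. Zfpm2, which encodes the GATA4 partner FOG2, was at 41.0 ± 3.97 CPM in cKO and 68.8 ± 15.5 in floxed hearts (SD, n = 3), a log2 fold change of -0.75 (SE 0.16, edgeR adjusted p of 0.0267). Hopx, an atypical homeodomain cofactor, was at -0.43, and of the myocardin-related cofactors of SRF, Mkl2 was at -0.38 and Mkl1 at 0.36 on the same scale. Among 12 genes that regulate MEF2 activity, 2 were higher and 2 lower, with a median log2 fold change of -0.00186. Hdac9, a class II histone deacetylase that represses MEF2 and is itself a MEF2 target, was at 27.0 ± 3.52 CPM in cKO and 60.1 ± 7.47 in floxed hearts, a log2 fold change of -1.16 (SE 0.13, edgeR adjusted p of 0.0061). The related Hdac7 was at 0.54, the histone deacetylase kinase gene Prkd1 at -0.67, and Rcan1, a calcineurin inhibitor induced by calcineurin, at 1.13.

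Of 19 other cardiac developmental factors that could be tested, 3 were lower and 0 higher in cKO hearts, and the list's median was -0.30 on the log2 scale. They were Hey2, a transcriptional repressor of the ventricle, at -1.86 (SE 0.13, edgeR adjusted p of 0.00481), the ventricular factor Irx4 at -0.84 and the homeodomain factor Meis1 at -0.49. Hey2 and Irx4 also stand among the 4 ventricular markers. Of 24 target genes, known as targets of one or more of these factors, 8 were lower and 3 higher, with a median of -0.12. The 3 higher genes were the fetal and stress response genes Nppb at 4.05, Ankrd1 at 2.76 and Nppa at 1.95 on the log2 scale. Nppb was at 1030 ± 476 CPM in cKO and 63.1 ± 56.9 in floxed hearts. The lower genes with the largest differences were the conduction connexin gene Gja5 at -1.36, the calcium-binding protein gene Hrc at -0.91, the calcium pump gene Atp2a2 at -0.86 and the ryanodine receptor gene Ryr2 at -0.82.

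**Figure D3:**
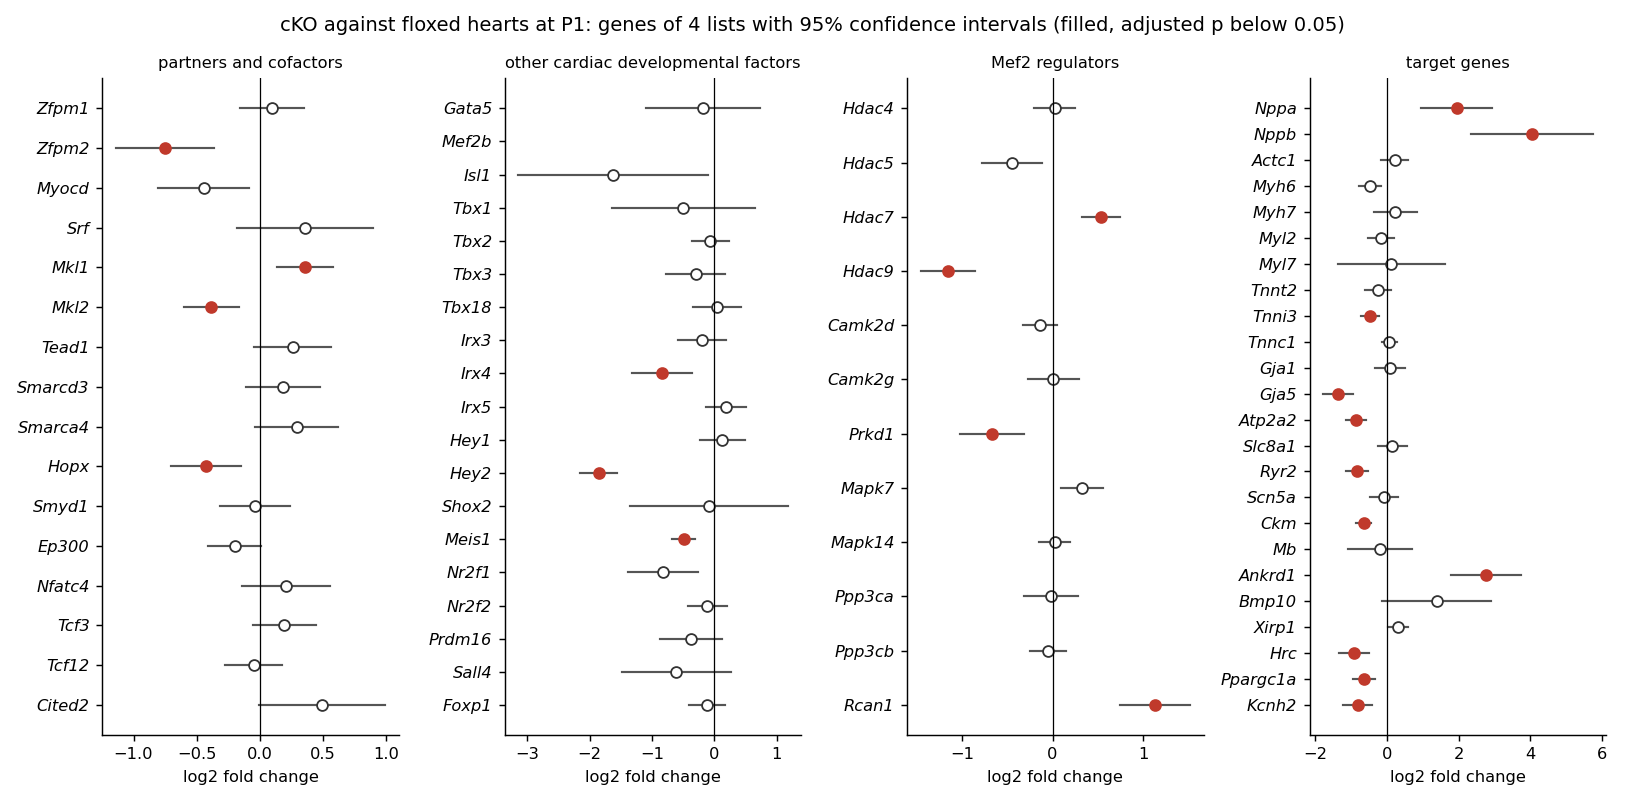
Fitted log2 fold change in cKO against floxed hearts (x axes) with 95% confidence intervals for genes of 4 lists (rows), where filled points passed an adjusted p of 0.05. Nppb, Ankrd1 and Nppa lie farthest to the right among target genes, and Hey2 and Hdac9 farthest to the left among called genes of their lists. Mef2b could not be tested.

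KI/KI hearts were compared with WT hearts at 2 months to ask the same of the c.T38>G mutation. None of the 9 members that could be tested was called, and the call rate over all 14592 genes tested was 0% higher and 0% lower by edgeR's quasi-likelihood test. At an unadjusted p under 0.05 there were 2 members, Gata6 and Mef2a, and 2363 genes in all, or 16.2%. DESeq2 called 0 members, and 306 genes higher and 212 lower. The median log2 fold change of the 9 was -0.10, beside 0.0023 for all genes.

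Mef2a was at 492, 446 and 430 CPM in WT hearts and at 415, 361 and 378 in KI/KI hearts. The groups did not overlap, and the log2 fold change was -0.24 (SE 0.08, edgeR adjusted p of 0.264). Groups were also apart, with KI/KI lower, for Mef2d and Nkx2-5, so that 3 of 9 members were lower without overlap where 11.0% of all genes were, and 0 were higher without overlap where 11.5% were. For Mef2d, at 126, 132 and 124 CPM in WT and 123.69, 112 and 118 in KI/KI hearts, the lowest WT and the highest KI/KI heart were equal to 3 digits, and the groups were apart only when normalized over these 6 hearts. Nkx2-5 was at 53.4, 55.9 and 48.0 CPM in WT and at 47.8, 48.0 and 46.9 in KI/KI hearts, so that the nearest hearts again met at 3 digits, and its log2 fold change was -0.13 (SE 0.06, edgeR adjusted p of 0.348). Scaled to cardiomyocyte markers, Mef2d and Nkx2-5 were at 0.08 and 0.06, while the median of all genes moved to 0.19, so both stayed below the median gene.

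Gata6 was at 112, 96.2 and 82.9 CPM in WT hearts and at 85.8, 73.6 and 80.4 in KI/KI hearts, with a log2 fold change of -0.28 (SE 0.11, edgeR adjusted p of 0.302) and overlapping groups. Without WT replicate 1 it was -0.17. Gata4 was at 0.15 and Mef2c at 0.15 on the log2 scale. Gata4 was at 0.057 without KI/KI replicate 5 and Mef2c at 0.096 without WT replicate 2. Tbx20 was at 268, 274 and 278 CPM in WT and at 272, 381 and 324 in KI/KI hearts, a log2 fold change of 0.26 (SE 0.12, edgeR adjusted p of 0.353) that was 0.13 without KI/KI replicate 5. Tbx5 was at 0.04, with a 95% interval from -0.15 to 0.24. Hand2 had the widest interval, from -1.16 to 0.12 around -0.52. It was at 96.3, 101 and 47.6 CPM in WT hearts and at 60.0, 47.6 and 62.1 in KI/KI hearts, and the log2 fold change was -0.79 without WT replicate 3 and -0.34 without WT replicate 2. WT replicate 3 held 101 CPM of 7 lung epithelium markers where the other WT hearts held 0.514 and 0.55. It also held 9.93 CPM of 8 skeletal muscle markers where those hearts held 1.70 and 2.50. In WT replicate 3, 2 of the 7 lung markers were at 0, Sftpc among them. KI/KI replicate 4 held 35.1 CPM of the lung markers, where KI/KI replicates 5 and 6 held 0.677 and 0.506. The part of other tissue in the Hand2 level of WT replicate 3 was not tested. Hand1 had 1 count in all 3 WT libraries together and 1 in all 3 KI/KI libraries, below the floor in each, so no fold change is given. KI/KI replicate 5 had the highest summed fibroblast markers of the adult hearts, 4755 CPM where the other 5 had 1998 to 2909, and the lowest cardiomyocyte markers, 25759 CPM where the others had 30375 to 38085. It also had the lowest Mef2a, Gata6, Mef2d and Hand2 and the highest Gata4, Tbx5 and Tbx20 of the adult hearts. The part of cell composition in these values was not tested.

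By edgeR's test no gene of the 4 lists was called in KI/KI hearts, whereas DESeq2 called 5, Nppb, Ankrd1 and Rcan1 higher and Zfpm2 and Hdac5 lower. At an unadjusted p under 0.05, edgeR gave 2 partners, 2 other developmental factors, 3 regulators of MEF2 and 5 target genes. The share of all genes under that threshold was 16.2%. The smallest unadjusted p among partners belonged to Zfpm2, at -0.34, and Myocd, at -0.23 on the log2 scale, and among other developmental factors to Irx5, at 0.49, and Tbx3, at -0.52. Among regulators of MEF2 they belonged to Hdac5, at -0.28, and Rcan1, at 0.84, and among target genes to Nppb, at 1.87, and Ankrd1, at 1.10. Nppb was at 451 ± 189 CPM in KI/KI and 124 ± 30.5 in WT hearts, without overlap, and had an adjusted p of 0.193 by edgeR.

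The effects of the 2 models were then compared in one fit of all 12 hearts, as the KI/KI effect minus the cKO effect. Among the members 1 was called higher and 0 lower, where 1.27% of 15729 genes were called higher and 1.17% lower. That gene was Mef2c. Its level was 163, 140.2 and 148 CPM in WT and 168, 160.5 and 170.3 in KI/KI hearts, a log2 fold change of 0.15, against -0.41 at P1. The difference was 0.54 (SE 0.11), with an adjusted p of 0.0362 by edgeR. Leaving out any one of 9 hearts ended this call, all but KI/KI replicate 5, floxed replicate 3 and cKO replicate 6, with edgeR adjusted p between 0.0215 and 0.108 over the 12 omissions, and scaling to cardiomyocyte markers ended it too (0.138). The differences of Mef2a, 0.36 (SE 0.11), and Mef2d, 0.35 (SE 0.09), did not pass, with adjusted p of 0.103 and 0.0734 by edgeR, and DESeq2 called all 3. Hand1 was not read here because the adult hearts were below the floor. On the lists, Hey2, at 1.53, and Hdac9, at 1.07, were called. The models differ in age, in allele and in the cells affected, and these cannot be told apart.

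**Figure D4:**
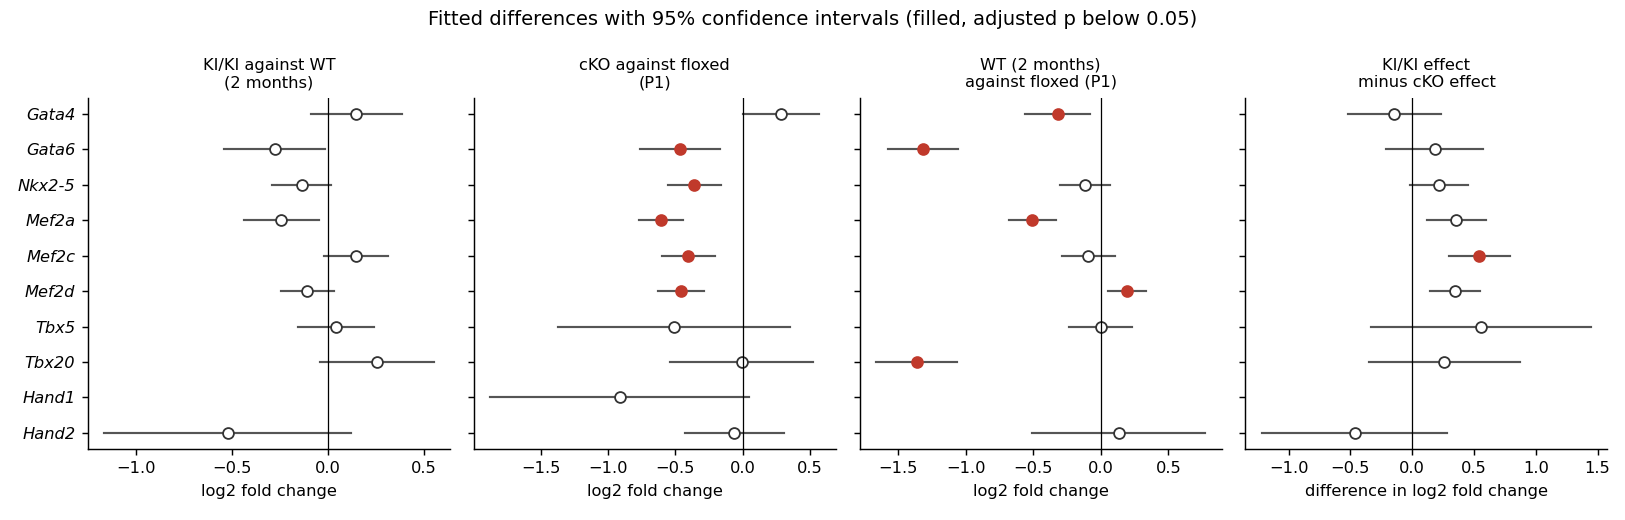
Fitted log2 fold changes (x axes, with 95% confidence intervals) of the 10 factors (rows) in KI/KI against WT hearts, cKO against floxed hearts and WT against floxed hearts, and the difference between the first and second, where filled points passed an adjusted p of 0.05. The 5 filled points for cKO hearts all lie below 0, none is filled for KI/KI hearts, and Hand1 is left out where an adult group was at or under 3 counts.

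Adult WT hearts were compared with P1 floxed hearts to describe the factors across age. This comparison uses the same WT and floxed hearts as the comparisons above, and it also differs in the Lemd2 allele, since the floxed mice carry LoxP sites. In adult hearts 5 members were lower and 1 was higher, where 33.4% of all 15183 genes were called lower and 31.8% higher, a share of the members near that of all genes. The median log2 fold change was -0.22 for the members and -0.04 for all genes. Groups were apart with adult hearts lower for 4 members (36.8% of all genes) and higher for 1 (34.3%).

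Hand1 showed the greatest difference. Its 376 counts in the 3 floxed libraries compared with 1 in the 3 WT libraries, a ratio of 276 after normalization with an exact 95% interval from 49.2 to 10917 that covers counting error only. Against the KI/KI libraries, also with 1 count, the ratio was 303 (interval from 54.0 to 11988). Gata6 was at 238, 259 and 224 CPM in floxed and 112, 96.2 and 82.9 in WT hearts, a log2 fold change of -1.31 (SE 0.11, edgeR adjusted p of 2.6e-05). Tbx20 differed by -1.36 (SE 0.13, edgeR adjusted p of 4.8e-05), and its highest WT heart, at 278 CPM, was below the lowest floxed heart, at 601. Mef2a was at -0.51 (SE 0.07) and Gata4 at -0.32 (SE 0.10), with adjusted p of 0.000501 and 0.0257 by edgeR. Leaving out 1 heart ended the call of Gata4 in 4 of 6 cases, WT replicates 1 and 2 and floxed replicates 2 and 3, with edgeR adjusted p between 0.0635 and 0.0795.

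Mef2d was the only member with a higher level in adult hearts, at 0.19 (SE 0.06, edgeR adjusted p of 0.0225), and its direction flipped to -0.21 when libraries were scaled to their totals and to -1.08 when they were scaled to cardiomyocyte markers. These 2 scalings moved the median log2 fold change of all genes to -0.44 and -1.31. Relative to that shift Mef2d stayed above the median gene. Its call was also lost without WT replicate 1, WT replicate 2 or floxed replicate 1, with edgeR adjusted p between 0.0635 and 0.0896. Nkx2-5 (-0.12), Mef2c (-0.09), Tbx5 (0.000248) and Hand2 (0.13) were not called, and under both of those scalings all 4 lay below 0, while Tbx5 had a 95% interval from -0.23 to 0.23. Hand2 was called higher without WT replicate 3, at 0.43 with an adjusted p of 0.0195 by edgeR. That heart had the highest summed lung epithelium markers of this comparison, 101 CPM. Floxed replicates 1 and 2 also held 30.7 and 48.9 CPM of them. Summed cardiomyocyte markers ran from 30375 to 38085 CPM in WT and from 18419 to 20217 in floxed hearts, and all 8 markers were called higher in the adult. Fibroblast markers ran from 1998 to 2403 CPM in WT and from 6285 to 7087 in floxed hearts, proliferation markers from 29.7 to 59.2 and from 279 to 395, macrophage markers from 245 to 375 and from 103 to 124, and 5 epicardial markers from 24.6 to 39.4 and from 45.3 to 84.3. The part of cell composition in these differences was not tested.

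Of all 15183 genes tested across age, 31.8% were called higher and 33.4% lower. On the lists, 14 of 24 target genes were higher and 3 lower in adult hearts. Among the higher were Hrc at 3.24, the myoglobin gene Mb at 2.76, Ankrd1 at 1.68 and Atp2a2 at 1.67 on the log2 scale. The lower were Gja5 at -1.67, the fetal myosin gene Myh7 at -1.21 and Slc8a1 at -1.15. Of 19 other developmental factors 12 were lower and 2 higher, among them Hey2 at -3.62, the second heart field factor Isl1 at -3.19 and Tbx18 at -1.98, with Sall4 at 0.69 and Hey1 at 0.48 as the higher. Of 16 partners 6 were lower, among them Tcf12 at -0.79, Nfatc4 at -0.79, Tcf3 at -0.74 and Zfpm2 at -0.51, and 4 were higher, Cited2 at 0.99, Smyd1 at 0.54, Tead1 at 0.39 and Mkl2 at 0.24. TCF3 and TCF12 are E proteins that pair with HAND factors. Of 12 regulators of MEF2, 5 were higher, led by Hdac4 at 1.57, Hdac5 at 0.63, Mapk14 at 0.62 and Ppp3cb at 0.37, and 4 were lower, Mapk7 at -0.67, Prkd1 at -0.46, Hdac9 at -0.46 and Camk2g at -0.19.

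As a description of the pattern across all 12 hearts, the 2 genes with the highest Pearson correlation of log2 CPM with each member were taken among 15729 genes. The hearts fall into 4 groups and 2 ages, which all points share. They were Psph (0.99) and Zfp280d (0.99) for Gata6, Ring1 (0.99) and Cbr1 (0.98) for Mef2d, Gm8234 (0.99) and Nedd4 (0.99) for Hand1, D7Ertd715e (0.98) and Cdip1 (0.98) for Mef2a, and Dgkk (0.98) and Trim44 (0.98) for Tbx20. For Gata4 they were Cdc42bpb (0.96) and Pcdhgc3 (0.96), for Tbx5 Slc26a3 (0.94) and Porcn (0.93), for Mef2c Garem (0.93) and Osbpl8 (0.93), for Nkx2-5 Pard3 (0.93) and Map2k5 (0.93), and for Hand2 4930577N17Rik (0.90) and Apbb3 (0.90). No member was among the 2 genes most like another member.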

How the data were processed

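Whole-heart RNA-Seq of 3 WT, 3 KI/KI, 3 floxed and 3 cKO mice was analysed. The authors removed adapters from single-end reads (Trim Galore), mapped to mm10 with STAR 2.7.2b, sorted alignments with SAMtools 1.9 and counted per gene with HTSeq, and the deposited values are whole-number counts without normalization. The submitters' processing notes also name Bowtie2 2.3.4.3 and DESeq2. Counting settings are not given in the sources used here. In R 4.3.3, each comparison was fitted over all genes with edgeR 4.0.16 (TMM, filterByExpr, robust quasi-likelihood test, Benjamini-Hochberg adjustment) on its own 6 libraries, and the difference between models on all 12. A gene was called at an adjusted p under 0.05. The study's threshold of a fold change above 2 was counted in addition. Each SE is the size of the fitted log2 difference divided by the root of the F statistic. No libraries held identical counts, and replicates of a group differed by more than sampling noise.

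Alternatives were DESeq2 1.42.0, limma-voom 3.58.1, other scalings, filters and dispersion settings, a Y-linked covariate and each library left out. Scaling to cardiomyocyte markers and edgeR's earlier quasi-likelihood method were added after seeing the data. Scripts were tested on simulated counts. Positions and exon lengths are from GENCODE M21. Apart from the members and Lemd2, genes were named by rule as per list the called genes that differed most, up to 4 higher and 4 lower, or, where none was called, the 2 with the smallest p, and the 2 genes most like each member. Sex-linked and marker genes were named as checks. The members and lists were chosen with earlier results of these data known. The values of 1 gene of the lists, which counts of its list include, are not reported here.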

Additional observations from a re-analysis of the deposited data

Results flagged for a closer look

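Mef2c was set apart by the test of the difference between models, since its KI/KI effect exceeded its cKO effect by 0.54 on the log2 scale (SE 0.11, edgeR adjusted p of 0.0362 over 15729 genes). All 3 cKO hearts were below all 3 floxed hearts, while the WT and KI/KI hearts overlapped. The call was lost in 11 of the alternatives tried and kept in 6, and most single-heart omissions ended it. On the cardiomyocyte scale the adjusted p was 0.138 by edgeR, and with the replicate block it was 0.134. With hearts left out the difference ran from 0.48 to 0.60. With 3 hearts per group, no test for a single outlying heart was made.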

How the results depend on the processing

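With 3 hearts per group, differences smaller than the intervals given could not be detected, genotype and any processing batch cannot be told apart, and replicates measure the spread between mice only. The 5 lower members of cKO hearts ranged from 1 to 5 when single hearts were left out, numbered 2 with the Y-linked covariate, and were 1 lower and 1 higher when scaled to cardiomyocyte markers. That scaling put Tbx20 at 0.12 and Hand2 at 0.075 at P1, where it put the median of all genes at 0.13, and Nkx2-5 at 0.060 and Mef2d at 0.081 in KI/KI hearts, where that median was 0.19, so these 4 genes stayed below the median gene. With hearts left out, Tbx20 ran from -0.21 to 0.18 and Hand2 from -0.18 to 0.061 at P1, and Tbx5 from -0.024 to 0.10 in KI/KI hearts.

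Across age, where 5 lower and 1 higher members were given, 9 were lower and 0 higher with library totals. With the cardiomyocyte scale 10 were lower and 0 higher, and 0 were higher with upper-quartile scaling. Of all 15183 genes, 8202 were lower and 2801 higher with library totals, and 12477 and 859 with the cardiomyocyte scale. The median log2 fold change of all genes was then -0.44 and -1.31. Mef2d, Tbx5 and Hand2 were at -0.21, -0.40 and -0.28 with library totals and at -1.08, -1.27 and -1.16 with the cardiomyocyte scale. These genes thus lay above the median gene under both. Tbx5 was at -0.074 with upper-quartile scaling and -0.023 with at least 10 counts in every library. With hearts left out the higher members numbered 0 to 2, Tbx5 ran from -0.077 to 0.096 and Hand2 from -0.036 to 0.43. In the difference between models, 3 members were called higher by DESeq2 and by library totals, 0 with the cardiomyocyte scale, and 0 to 1 with hearts left out, and Gata4 was at 0.00274 with library totals.

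Replicate numbers are shared by WT and floxed and by KI/KI and cKO hearts. Deviations of same-numbered hearts correlated at -0.24, -0.29 and -0.54 for the former and at 0.21, 0.20 and 0.09 for the latter. Differently numbered hearts were not compared in this way, so whether the numbers pair the samples is not known. With the replicate block, 0 members were higher across age (Mef2d had an adjusted p of 0.0575 by edgeR), the 5 lower members numbered 5, and 0 members and 0 genes were called in the difference between models. Over all genes, the 1427 higher and 1160 lower calls in cKO hearts ranged with hearts left out from 86 to 1942 and from 74 to 1521, lowest without floxed replicate 1, and became 2156 and 486 with the cardiomyocyte scale. Across age the 4824 higher and 5074 lower calls became 2801 and 8202 with library totals and 859 and 12477 with the cardiomyocyte scale. In KI/KI hearts the 0 calls became 33 higher and 15 lower in a fit of all 12 libraries and 40 and 16 without KI/KI replicate 4. For the difference, 199 genes were called higher and 184 lower, which ranged from 26 to 437 and from 25 to 487 with hearts left out, and DESeq2 called 571 and 752. The causes of these shifts were not tested.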
